A study of Homo sapiens with 5 samples.

Results

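ISG15 is a ubiquitin-like protein, and the genes described here are ISG15 itself and the enzymes that attach it to other proteins or take it off again: UBA7, UBE2L6, HERC5, HERC6 and USP18. Their peaks were taken from a table of acetylation of histone H3 at lysine 27 (H3K27ac), a mark of active promoters and enhancers measured by ChIP-seq. A peak was assigned to a gene when its center lay within 10 kb of any transcript start of that gene in GENCODE release 44 (GRCh38). This gave 9 of the 20087 peaks of the table, with 4 at ISG15 and 1 each at UBA7, UBE2L6, HERC5, HERC6 and USP18. All 6 genes had at least 1 peak, and all 9 peaks were 1000 bp wide, so that their levels can be set side by side.

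The cells were HCT116, a human colorectal carcinoma line, in a derivative labelled CMV-osTIR1 RAD21-mAC, the same in both groups, in which the cohesin subunit RAD21 carries a degron tag and osTIR1 is expressed from a CMV promoter. All cells received 0.1% DMSO for 6 h. The IFN-β group (2 libraries) was treated next with IFN-β at 1000 unit/ml during 1 h, while the control group (2 libraries) had no further treatment. The library titles give 60 min for the IFN-β group and 0 min for the control group, and do not say what the minutes count. If they include time in culture, the groups also differ by that time, and the 2 cannot be told apart. A further library, titled as mock with 60 min, held input DNA and was used by the authors for peak calling. The labels do not say whether the 2 libraries of a group came from separate cultures.

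ISG15 is conjugated in a relay that resembles ubiquitination. UBA7 activates ISG15, UBE2L6 carries it, and a HECT-type ligase passes it to lysines of target proteins. HERC5 is the main such ligase in human cells and HERC6 is its close relative in the same gene cluster. USP18 removes ISG15 from its targets and, separately from that activity, binds the type I interferon receptor and dampens its signaling. Type I interferon acts through a transcription factor complex that includes STAT2 and IRF9 and binds the interferon-sensitive response element (ISRE) in the promoters of such genes.

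The sequences beside the starts of ISG15, HERC5 and HERC6 are shown because they hold the ISRE cores to which the acetylation values below are compared. The core searched was GAAANNGAAA on either strand (TTTCNNTTTC when read on the other strand), where N is any base. Capitals mark each match. The ISG15 sequence is the last 150 bases before its RefSeq start (GRCh38.p14, chr1:1013347-1013496, plus strand). The HERC5 sequence is the last 150 bases before its RefSeq start (GRCh38.p14, chr4:88456969-88457118, plus strand). The HERC6 sequence lies in an intron of HERC6 within its peak (GRCh38 reference, chr4:88379358-88379446, plus strand). RefSeq promoter entries were matched for 4 of the 6 genes, and none was found for UBA7 and USP18 in the promoter set used here.
ISG15: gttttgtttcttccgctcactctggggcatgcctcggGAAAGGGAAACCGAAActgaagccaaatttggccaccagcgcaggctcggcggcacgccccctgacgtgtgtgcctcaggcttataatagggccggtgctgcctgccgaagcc
HERC5: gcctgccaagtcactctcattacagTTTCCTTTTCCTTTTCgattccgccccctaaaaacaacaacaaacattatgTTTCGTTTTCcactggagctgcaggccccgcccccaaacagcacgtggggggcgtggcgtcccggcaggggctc
HERC6: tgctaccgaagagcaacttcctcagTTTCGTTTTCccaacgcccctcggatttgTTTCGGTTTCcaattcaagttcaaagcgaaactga

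The deposited table holds, for each peak, the log2 of the mean normalized reads over the 2 libraries of each group. It holds no value per library, so no SD or standard error could be computed from it and no test between the groups was run here. The authors' own test columns were not used, so a peak called higher below is higher in group means only, and no order between close values can be checked against replicates. Differences are IFN-β minus control on this log2 scale, computed from the authors' group means. Across all 20087 peaks the median difference was -0.69, so each difference is also given relative to that median. Only 5.93% of all peaks had a difference above 0, and 2.51% lay at least 1 log2 unit above the median, which is the size used below to call a peak higher. At least 1 unit below the median lay 1.44% of all peaks. Of the 6 epithelial markers examined, EPCAM, CDH1, KRT8, KRT18, KRT19 and CLDN4, all 6 had a peak within 341 bp of a start. Of the 8 leukocyte, fibroblast and endothelial markers, PTPRC, CD3E, COL3A1 and PDGFRB had no peak within 10 kb, the peaks assigned to CD14, PECAM1 and CDH5 lay between 3504 and 5910 bp from a start, and only COL1A1 had a peak near its start, at 199 bp. The CDH5 peak had a difference of 0.56, and the other 3 of these peaks lay below 0.

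H3K27ac at the starts of ISG15, HERC6 and USP18 was higher after IFN-β than in control cells, HERC5 had the same value in both groups, and UBE2L6 was lower. Relative to the median of all peaks, HERC5 was at 0.69 and UBE2L6 at -0.42, both short of the 1 unit limit. The peak at UBA7 and the other 3 peaks assigned to ISG15 were lower, by slightly less than the median of the table as a whole. Of the 9 peaks, 3 had a difference above 0, against 5.93% of all peaks, and the same 3 lay at least 1 log2 unit above the median, against 2.51% of all peaks. None of the 9 lay 1 unit or more below it, against 1.44%. The median over the 9 peaks was -0.44, and 5 of them lay below 0, against 93.9% of all peaks. When the median of all peaks was subtracted, 8 of the 9 had a positive difference, against 9869 of all 20087 peaks. The count above 0 thus depends on this offset.

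**Figure D1:**
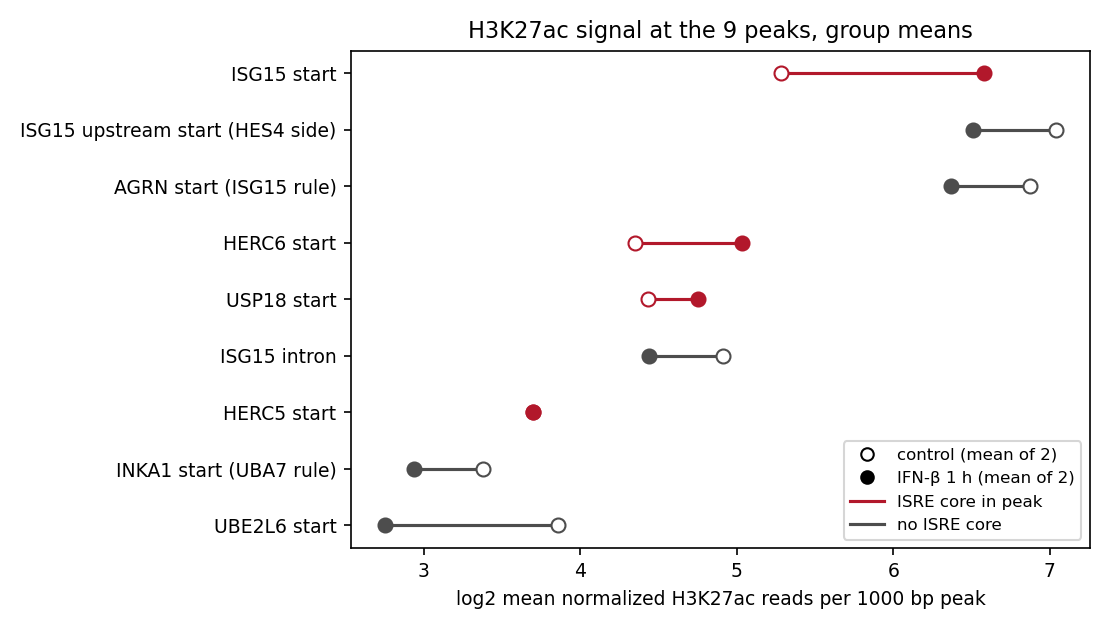
Authors' mean log2 normalized H3K27ac reads at the 9 peaks, in control cells (open circles) and after IFN-β (filled circles), each the mean of 2 libraries with no error available, in red for peaks with an ISRE core and grey without. The ISG15 start peak went from 5.28 to 6.58, the HERC5 circles coincide at 3.70, and the 5 grey peaks have the IFN-β circle on the left.

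The ISG15 start peak (chromosome 1, 1012765 to 1013765) was centered 232 bp upstream of the canonical start of ISG15, inside an intron of longer ISG15 transcripts that begin farther upstream. The authors' mean log2 signal was 5.28 in control cells and 6.58 after IFN-β, which corresponds to 38.9 and 95.7 normalized reads per library. The difference was 1.30, or 2.46-fold, and 1.99 relative to the median of all peaks. This put the peak at rank 37 of 20087 by difference. By level, 56.7% of all peaks were at or below it in control cells and 98.7% after IFN-β. Among the 2009 peaks in the same decile of mean signal, 2 had a difference at least as high (0.0996%), itself included, and the middle 80% of those peaks ran from -1.04 to -0.45. Among the 11334 peaks within 1 kb of a protein-coding start, 12 did (0.106%).

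The other 3 peaks assigned to ISG15 lay within 12.1 kb of this one and did not share its difference. The first (1000628 to 1001628) was centered 10 bp from the upstream ISG15 start and 956 bp from the start of HES4, a Notch-responsive transcriptional repressor, and had log2 signals of 7.04 in control cells and 6.51 after IFN-β. The second (1005816 to 1006816), in an ISG15 intron, had 4.91 and 4.44. The third (1019594 to 1020594) was centered 26 bp from the start of AGRN, which encodes the proteoglycan agrin, and had 6.87 and 6.37. Their differences of -0.53, -0.47 and -0.50 fall slightly above the median of the table.

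Because the 4 peaks come from the same libraries, a factor common to all peaks of a group cancels between them. The scaling of the 2 libraries of a group against each other need not cancel. In control cells the log2 level of the ISG15 start peak minus that of the HES4-side peak was -1.76, and minus that of the AGRN peak -1.59. After IFN-β these gaps were 0.07 and 0.21. The difference at the start peak thus exceeded those at its neighbours by 1.83, 1.77 and 1.80 log2 units, in the order given above. Of the summed signal of the 4 peaks, 317 normalized reads in control cells and 291 after IFN-β, the start peak held 12.2% in control cells and 32.9% after IFN-β. The HES4-side peak held 41.4% and 31.3%, so the start peak went from well under it to slightly more.

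Within 120 kb of the canonical ISG15 start there were 16 peaks, and the start peak was the only 1 with a difference above 0. A count of 1 in 16 is near the 5.93% of all peaks above 0. Of the 16, the 12 that were not assigned to ISG15 had differences from -1.27 to -0.28. The nearest of these on either side, near the start of PERM1 (36.8 kb away) and within the AGRN region (11.9 kb away), had differences of -0.52 and -0.38.

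**Figure D2:**
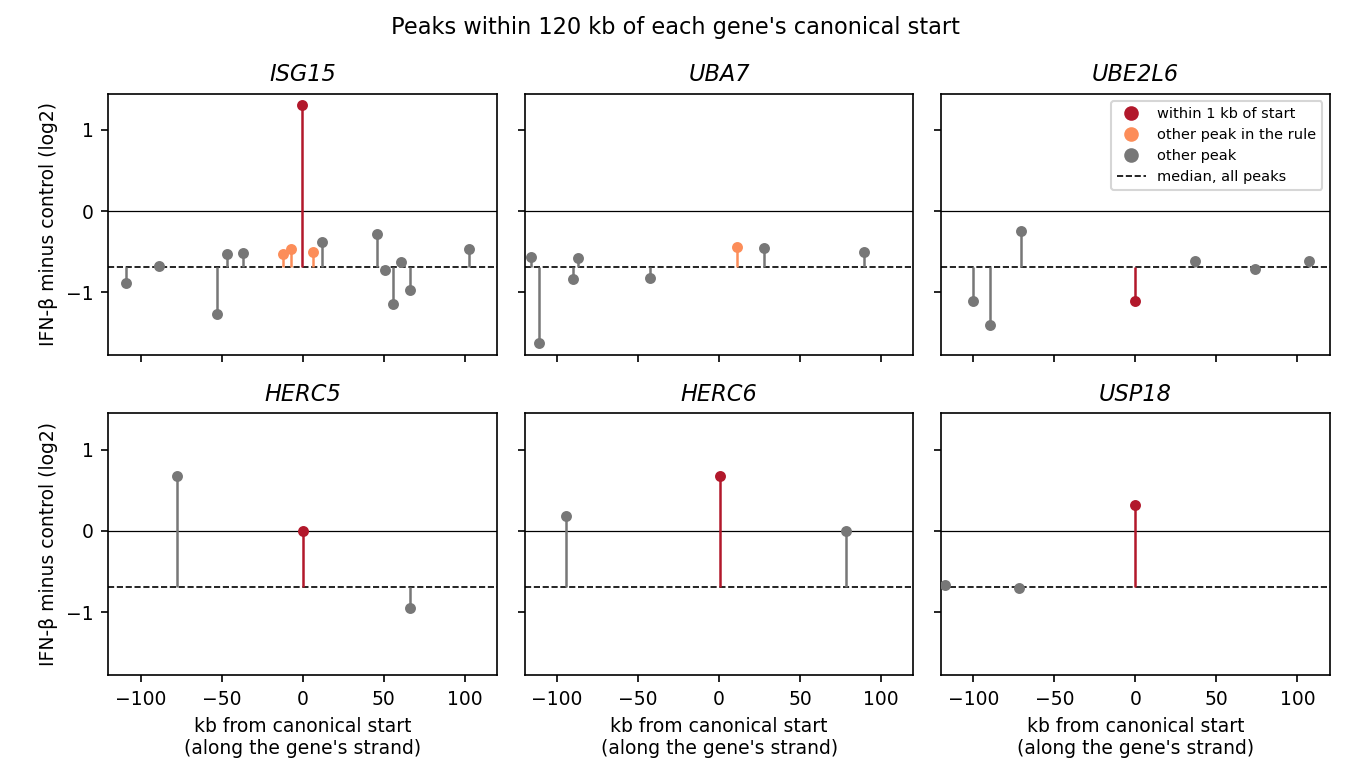
Difference in log2 H3K27ac signal, IFN-β minus control, for every peak within 120 kb of the canonical start of each gene, against distance in kb along the strand of the gene. The dashed line is the median of all peaks, -0.69, and the peaks above 0 are the starts of ISG15 (1.30), HERC6 (0.68, also in the HERC5 panel) and USP18 (0.32) and the peak of PPM1K (0.18, in the HERC6 panel).

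Of the activating and conjugating enzymes, neither had an assigned peak with a higher signal. UBA7, the enzyme that activates ISG15, had no peak within 10 kb of its canonical start. The single peak that met the rule (chromosome 3, 49802458 to 49803458) lay 3332 bp from the start of a short UBA7 transcript, 10995 bp from the canonical start and 303 bp from the start of INKA1, an inhibitor of the kinase PAK4. Its log2 signal was 3.38 in control cells and 2.94 after IFN-β, or 10.4 and 7.67 normalized reads, with a difference of -0.44. Peaks near IP6K1 and TRAIP on either side had -0.46 and -0.82. All 8 peaks within 120 kb of the UBA7 start had a difference below 0, as did 93.9% of all peaks. The table thus gives no level at the UBA7 promoter itself.

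UBE2L6, the enzyme that receives ISG15 from UBA7, had a peak (chromosome 11, 57567541 to 57568541) centered in an exon of UBE2L6, 369 bp from its canonical start and 243 bp from another start. Its log2 signal was 3.86 in control cells and 2.75 after IFN-β, or 14.5 and 6.73 normalized reads. The difference of -1.11 was the lowest of the 9 peaks and was -0.42 relative to the median of all peaks, and 11.3% of all peaks had a difference as low or lower. In the same decile of mean signal the middle 80% of peaks ran from -1.32 to 0.15, so the value is within the range of peaks with as few reads. The neighbouring peaks near TIMM10 and YPEL4 had -0.62 and -0.25.

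The ligases HERC5 and HERC6 lie in a cluster on chromosome 4, and their peaks had differences of unlike size. The HERC6 peak (88378724 to 88379724), in an intron and 372 bp from the canonical start, had a log2 signal of 4.35 in control cells and 5.03 after IFN-β, or 20.4 and 32.7 normalized reads. Its difference of 0.68, a ratio of 1.60, was 1.37 relative to the median and had rank 157 of 20087. In its decile of mean signal, 13 of 2009 peaks had a difference at least as high (0.647%).
The HERC5 peak (88456521 to 88457521), centered 98 bp upstream of the start, had a log2 signal of 3.70 in both groups, or 13.0 normalized reads. Its difference of 0.00 was 0.69 relative to the median, with 94.1% of all peaks at or below it. In its decile of mean signal 188 of 2009 peaks were as high (9.36%), against 0.647% for HERC6.

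The peaks around both ligase genes give a comparison in which a factor common to a group likewise cancels. Upstream of HERC6, 95.1 kb away, the peak at PPM1K, which encodes a mitochondrial protein phosphatase, went from 3.56 to 3.74, a difference of 0.18. Downstream of HERC5, 66.4 kb away, the peak shared by PYURF and HERC3 went from 5.50 to 4.55, a difference of -0.95. HERC3 is a member of the same ligase family that is not part of the ISG15 relay. The HERC6 difference exceeded that of the PYURF peak by 1.63 log2 units and that of the PPM1K peak by 0.50. HERC5 exceeded the PYURF peak by 0.95 and its gap to PPM1K was -0.18. The level of HERC6 minus that of the PYURF peak was -1.15 in control cells and 0.48 after IFN-β, so their order turned.

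USP18, which removes ISG15 and restrains the receptor, had a peak (chromosome 22, 18149606 to 18150606) centered 64 bp from its canonical start. The log2 signal was 4.43 in control cells and 4.75 after IFN-β, or 21.6 and 26.9 normalized reads. The difference of 0.32, a ratio of 1.25, was 1.01 relative to the median and had rank 479 of 20087. In its decile of mean signal 35 of 2009 peaks were as high (1.74%). Centred within deciles of GC content it was 0.95 and within deciles of mean signal 0.97, both short of the limit of 1. The nearest peak in its own neighbourhood, at PEX26 and 71.9 kb away, went from 5.44 to 4.74, a difference of -0.70, and the level of USP18 minus that of PEX26 was -1.01 in control cells and 0.01 after IFN-β.

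**Figure D3:**
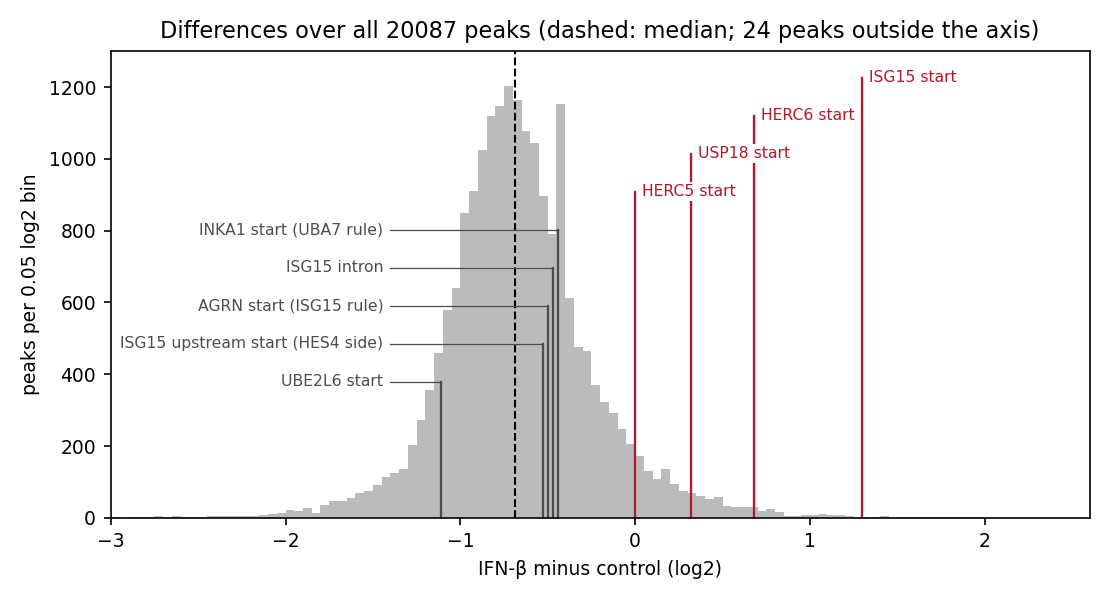
Number of peaks by difference, IFN-β minus control, in bins of 0.05 log2 units over all 20087 peaks, with the 9 peaks near the ISG15 genes drawn as lines (red with an ISRE core, grey without). The lines for HERC5, USP18, HERC6 and ISG15 stand at 0.00, 0.32, 0.68 and 1.30, to the right of the bulk of peaks, and 24 peaks lie outside the axis.

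The same 4 start peaks were those that held the ISRE core. ISG15 had 3 matches, HERC5 3, HERC6 2 and USP18 2, while the other 5 peaks had none. The differences of the 4 ran from 0.00 to 1.30 with a median of 0.50. Those of the 5 ran from -1.11 to -0.44 with a median of -0.50, so these ranges do not overlap. Of the 5, only the UBE2L6 peak lay within 1 kb of the canonical start of its assigned gene, so core and position are not separated. Over all peaks the ranges did overlap, from -3.17 to 11.39 with a core and from -4.25 to 7.08 without. The medians there were -0.59 and -0.70, and 10.6% and 5.27% were above 0. Over all peaks, 12.4% held at least 1 core and 1.94% at least 2, as all 4 start peaks with a core did. The 389 peaks with 2 or more cores had a median difference of -0.48, 14.7% of them were above 0 and 6.68% lay 1 unit above the median. Among those 389, the ISG15 start peak had rank 6 by difference, HERC6 12, USP18 26 and HERC5 58.

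The cores sat close to the starts, at like distances for 3 of the genes. In ISG15 an overlapping pair began 113 and 107 bp upstream of the canonical start, and the third match began 315 bp upstream, in an exon of an unnamed gene. In HERC5 a pair that overlapped in the same way, on the other strand, began 125 and 119 bp upstream, and the third match 74 bp upstream. The USP18 matches, at 18150060 to 18150069 and 18150079 to 18150088, began 110 and 91 bp upstream on opposite strands. In HERC6 both lay downstream of the start instead, 531 and 560 bp into the gene in an intron. Read on the strand with GAAA, the ISG15 pair was GAAAGGGAAA and GAAACCGAAA, the HERC5 pair was GAAAAGGAAA at both places, and the HERC6 matches were GAAAACGAAA and GAAACCGAAA. The latter has the same letters as the second of the ISG15 pair, and the former the same letters as the third HERC5 match. A row of 3 GAAA units 2 bases apart, looked for after these sequences were seen, was present in ISG15 and HERC5 and in 0.513% of all peaks, whose median difference was -0.50.

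**Figure D4:**
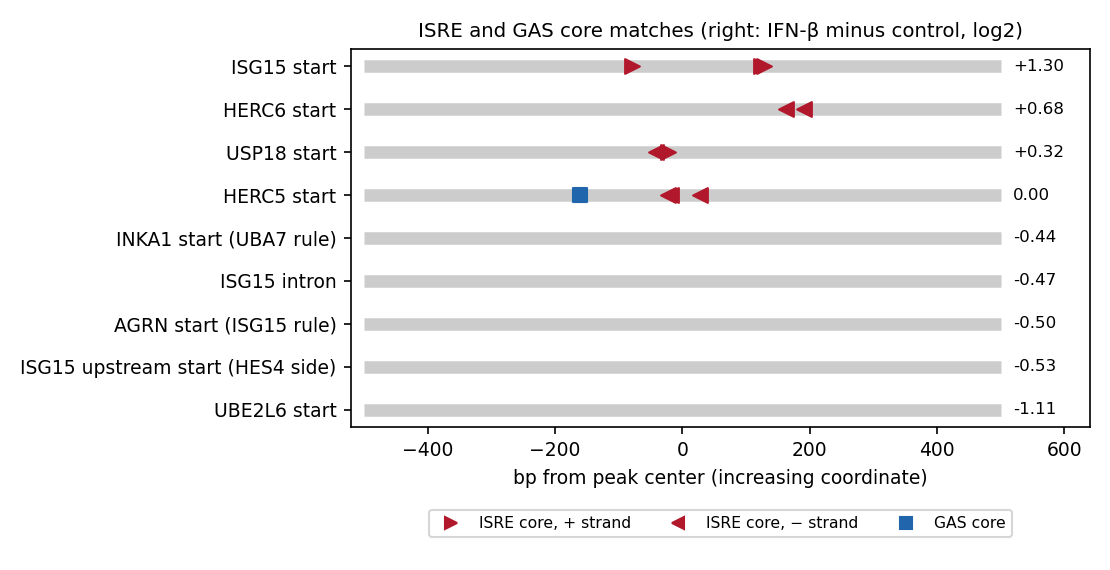
Positions of matches to the ISRE core (red triangles, pointing right on the plus strand and left on the minus strand) and the GAS core (blue square) in bp from the center of each of the 9 peaks. The values on the right are the differences, and the 4 peaks with ISRE cores have the 4 highest, from 0.00 to 1.30.

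The gamma-activated site (GAS), an element bound by STAT dimers, was searched as TTCNNNGAA, which reads the same on both strands. It was present in 1 of the 9 peaks, HERC5, beginning 263 bp upstream of the start, against 23.0% of all peaks. In the RefSeq promoters, 250 bases before to 50 after each start, the ISRE core was present in those of ISG15 and HERC5 and not in those of HERC6 and UBE2L6, against 3.57% of 35116 promoters. Among the 9 peaks, those with and without the core also differed in other ways. GC content was between 50.1% and 65.2% in the 4 with a core and between 65.4% and 80.4% in the 5 without. These ranges nearly meet, and GC content by core over all peaks is not given here. Centred within deciles of GC content, the differences were 1.99 for ISG15, 1.37 for HERC6, 0.95 for USP18 and 0.77 for HERC5, against -0.34 to 0.33 for the other 5. The share of 31-mers of a peak that occurred more than once in the reference was between 4.33% and 20.5% for the 4 with a core. It was 0% for the other 5. This share was not computed over all peaks, so whether either value is unusual is not known. The part of repeated sequence in the result was not tested.

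Genes of related systems were read in the same way, from the peak nearest a start. Among 8 other enzymes that have been linked to ISG15, none had a difference above 0, against 5.93% of all peaks and 2.81% of protein-coding promoter peaks, so that a count of 0 among so few genes sets them apart from neither. The median was -1.02. The highest was TRIM25, a ligase and regulator of RNA sensing that is itself modified by ISG15, with log2 signals of 6.93 and 6.87 and a difference of -0.06. The lowest was UBE2E2, a ubiquitin-conjugating enzyme, with 3.57 and 1.88 and a difference of -1.69, the only 1 of these 8 at least 1 unit below the median of the table.
Among 13 counterparts in ubiquitin and other modifier systems, 0 were above 0, again near the 2.81% of promoter peaks, and the median was -0.89, with UBA3 lowest at -1.01 and HERC2, a peak of low signal with 1.47 and 1.23, highest at -0.24. Of the 13, 3 lay above the median of the table, against 4562 of the 11334 protein-coding promoter peaks. Among the nearest relatives of the ISG15 enzymes, UBA1, the main activating enzyme of ubiquitin, had a difference of -0.89, UBE2L3, the ubiquitin counterpart of UBE2L6, had -0.92, and HERC3 had -0.95. Among 11 genes for other ubiquitin-like modifiers the median was -0.66 and 0 were above 0, near the same share, from SUMO3 at -1.41 to URM1 at -0.24. The ISG15 start peak, at 1.30, was thus outside the range of these modifier genes.

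The receptor arm on which USP18 acts was divided. IFNAR1 and IFNAR2, which encode the receptor chains, had differences of -0.66 and -0.67, close to the median of the table. The receptor kinases JAK1 and TYK2 had -0.47 and -0.41, or 0.22 and 0.28 relative to that median. Of all peaks, 72.5% and 79.0% were at or below these 2 values. STAT2 and IRF9, which act in the nucleus downstream of these kinases, were higher after IFN-β. STAT2 had log2 signals of 5.66 in control cells and 6.12 after IFN-β, a difference of 0.46. IRF9 had 5.11 and 6.40, a difference of 1.29. Both lay at least 1 unit above the median, against 2.51% of all peaks. Euclidean distance over the 2 group values was used to look for protein-coding promoter peaks like the ISG15 start peak among 11326 peaks outside the loci described here. The nearest was that of IRF9, at a distance of 0.25, followed by that of IRF7, a regulator of interferon genes, at 0.41 with 5.59 in control cells and 6.31 after IFN-β. The IRF9 peak held no ISRE core and that of IRF7 held 1, against 3 in ISG15. The likeness rests on 2 group means only.

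**Figure D5:**
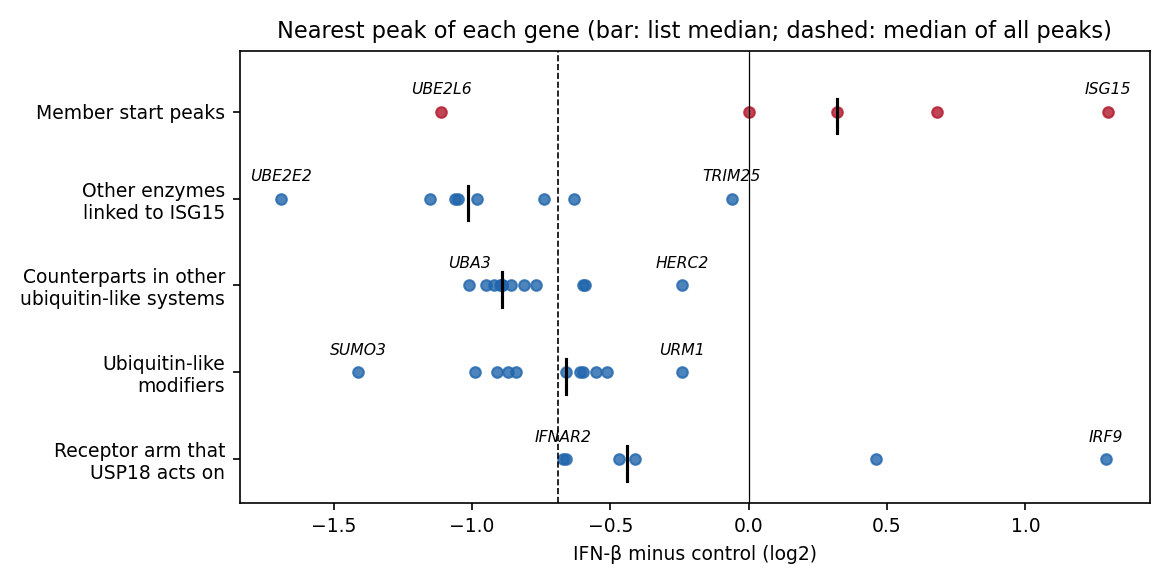
Difference, IFN-β minus control, of the peak nearest a start of each gene, for the 5 start peaks of ISG15, UBE2L6, HERC5, HERC6 and USP18 (red) and for 4 lists of related genes (blue). Bars are list medians and the dashed line is the median of all peaks, and the list medians run from -1.02 for other ISG15-linked enzymes to -0.44 for the receptor arm, against 0.32 for the start peaks.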

How the data were processed

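H3K27ac ChIP-seq libraries were made from HCT116 cells, with 2 after IFN-β, 2 unstimulated controls and 1 input. The authors trimmed reads with fastp (version 0.19.3 in the submitters' processing notes), aligned them to GRCh38 with bowtie2, called peaks per library with MACS2 against the input, and merged and counted peaks with DiffBind, which calls DESeq2. The values deposited are on a log2 scale, 1 per peak and group, and stand for reads normalized and averaged over the libraries of the group. The authors' own fold change, p-value and FDR columns were not used. The files used here give no read number per library, so the depth behind each value is given as mean normalized reads. Whether starts count from 0 or 1 is not given in the sources used here. They were read as counting from 0 for sequences, which moves a match by at most 1 base against a peak and not in the genome.

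Peaks, differences and motif matches were computed with pysam 0.24.0, numba 0.67.0, pandas 2.3.3 and numpy 2.4.6 (Python 3.11.15) on sequences indexed with samtools 1.23.1. The plots used matplotlib 3.10.9. The procedures were tested on simulated data. No test was run here: the table holds no value per library to compute one from, and the authors' test columns were left unused. The genes and lists were chosen with earlier results of these data known, and so were the 1 log2 unit limit and the rule for naming genes: the 6 genes with all their peaks, the nearest peaks outside the rule, the extremes of each list, the receptor arm, UBA1, UBE2L3 and HERC3, and the 3 promoters most like ISG15. Of these genes and the cell type markers, 2 are not reported here and were left out of the counts, medians and plots of their lists. Alternatives changed the distance, the starts, the centring, a pseudocount of 8 reads and the motif search.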

Additional observations from a re-analysis of the deposited data

How the results depend on the processing

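No paired analysis was possible because the table holds 1 mean per group and no column per library, and for the same reason no replicate could be left out. Centring moved the count of the 9 peaks above 0 from 3 to 8, on the median of all peaks as well as on the summed signal, which differed by -0.70 log2 between the groups. Centred on the median, 9869 of all 20087 peaks lay above 0. The median over the 9 peaks, -0.44 as deposited, was 0.25 when centred on the median, 0.26 on the summed signal, 0.33 within deciles of GC content, 0.29 within deciles of mean signal, and -0.23 with 8 reads added to each group mean. The 3 peaks at least 1 unit above the median were 2 under centring within deciles of GC content or of mean signal and with 8 reads added, where USP18 dropped to 0.95, 0.97 and 0.76. Under those 3 settings, relative to the median, ISG15 was between 1.67 and 2.06 and HERC6 between 1.04 and 1.37. Distances of 5, 1 and 25 kb gave 7, 6 and 12 peaks, canonical starts alone gave 7, and each set had 3 above 0. With 1 mismatch in the ISRE core 6 of the 9 peaks held it, but so did 70.9% of all peaks. The median of the other listed genes was -0.79 at 10 kb, at 1 kb and with canonical starts. After IFN-β the means at HERC5, UBE2L6 and the peak assigned to UBA7 were 13.0, 6.73 and 7.67 normalized reads, so these differences rest on the fewest reads, and their error is not known.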
